A study of Drosophila melanogaster with 9 samples.

Results

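The piRNA clusters described here are the 17 of 99 clusters in the deposited cluster tables whose name places them on arm U. They were taken by that name alone, and their values are raw reads given as a share of all cluster-mapping reads in the same table. PIWI-interacting RNAs (piRNAs) are small RNAs cut from long precursor transcripts of such clusters, which are genomic loci rich in transposon fragments, and they guide Piwi proteins to matching transposon transcripts. In the fly testis the germline piRNA pathway restrains transposons and the repetitive Stellate genes, the latter through piRNAs from repeats on the Y chromosome. Arm U is the name that the Release 5 fly assembly gave to a string of sequence pieces not placed on any chromosome, so neighbours on U need not be neighbours in the genome.

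Small RNAs were sequenced from hand-dissected Drosophila melanogaster testes, with 1 library for each genotype. The group called spermatogonia here held a bam mutant and a bgcn mutant library from whole testes, labelled as gonioblasts that divide by mitosis. Germ cells that lack bam or bgcn are known to keep dividing instead of entering the spermatocyte stage. The spermatocyte group held a can mutant and a sa mutant library, labelled as primary spermatocytes, from testes whose apical tips had been cut off. The genes can and sa are known as meiotic arrest genes, without which germ cells stop as spermatocytes. A y w library came from whole testes with germ cells of all stages. The labels name no alleles of bam, bgcn, can or sa, no age of the flies and no number of animals per library. The 4 aub and ago3 samples of the series are not analysed here. Stage, mutant stock and tip removal differ together between the groups and cannot be told apart, and the 2 libraries of a group are different mutants, so p-values measure the spread between those genotypes.

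Cluster-mapping reads numbered 20920 in bam, 32654 in bgcn, 21594 in can, 11636 in sa and 18371 in y w. The tables hold small RNAs only, so the labelled cell types could not be checked against messenger RNA markers. As a sign of somatic gonadal cells, all 8 of 8 listed somatic-type retrotransposons were detected in every library, and together they held 5.93% of transposon-mapping reads in bam, 5.72% in bgcn, 2.09% in can, 4.46% in sa and 3.36% in y w. These shares were lower in the spermatocyte libraries. The cluster at the flamenco locus, a source of piRNAs in somatic gonadal cells, gave no such order, with 11.9% of cluster-mapping reads in bam, 13.3% in bgcn, 8.65% in can, 17.8% in sa and 6.77% in y w. For both signs, their part in the results on U clusters was not tested. In whole-testis RNA, fewer cells of a type and less RNA per cell cannot be told apart. Each interval given below is an exact binomial one at the 95% level, for counting error alone.

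The clusters are called A to Q in their order along the arm. Cluster A lies at U:69266-119959, B at U:335892-387279, C at U:923516-964236, D at U:964336-1041768, E at U:1798246-1833539 and F at U:1965187-1982854. Cluster G lies at U:2074759-2097753, H at U:2443444-2477706, I at U:3113117-3137249, J at U:3411258-3430431, K at U:3928119-3942902 and L at U:4015849-4029971. Cluster M lies at U:4179317-4183670, N at U:5466328-5474996, O at U:5766708-5772171, P at U:7209933-7212604 and Q at U:8795936-8797237. Their median length was 19174 bases against 35910 bases for all 99 clusters, from 1302 bases (Q, the shortest of the 99) to 77433 bases (D). Clusters C and D are separated by only 99 bases, and the next closest pair, K and L, by 72946 bases. The build is not stated and the arm is absent from the annotation used here, so no gene, transposon or sequence is set against these coordinates.

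Together the U clusters took a far larger share of cluster-mapping reads in the spermatocyte libraries than in the spermatogonia libraries. They held 5.56% (interval 5.26 to 5.88) in bam and 5.96% (5.70 to 6.22) in bgcn, against 23.6% (23.0 to 24.1) in can and 18.5% (17.8 to 19.2) in sa. The y w testes stood with the spermatocyte libraries at 22.4% (21.8 to 23.0). The group means were 5.76 ± 0.277% and 21.0 ± 3.60% (SD, n = 2 each), a difference of 15.3 percentage points. With 2 libraries against 2, an exact two-sided permutation test cannot give a p below 0.333. Transposon-mapping reads are another denominator, though they may include reads that also map to clusters. Per 1000 of them, U clusters had 2.65 reads in bam, 3.35 in bgcn, 9.80 in can, 8.19 in sa and 11.5 in y w. The other 82 clusters went the opposite way on that scale, with 45.0 (bam) and 52.9 (bgcn) reads per 1000 against 31.8 (can), 36.1 (sa) and 40.0 (y w).

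Clusters I, L and Q together carried that difference, a trio picked after its values were seen. Cluster L added to it mainly in can, at 4.77% against 0.756% in sa and 0.806% in y w. In sa and y w cluster D held more than L, at 1.80% and 2.84%. For the trio, values are given next. The joint share of I, L and Q was 1.14% in bam and 2.92% in bgcn, against 20.3% in can, 14.1% in sa and 16.5% in y w. The other 14 U clusters summed to 4.43% in bam, 3.04% in bgcn, 3.32% in can, 4.43% in sa and 5.86% in y w. For those 14 the spermatogonia and spermatocyte ranges overlapped, with means of 3.73 ± 0.982% and 3.87 ± 0.782% (SD, n = 2 each). U reads were also spread over fewer loci in can, sa and y w, where 3 of the 17 clusters reached 80% of them. In bam and in bgcn 7 were needed. The 3 were I, L and Q in can, and I, Q and D in sa and y w.

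**Figure D1:**
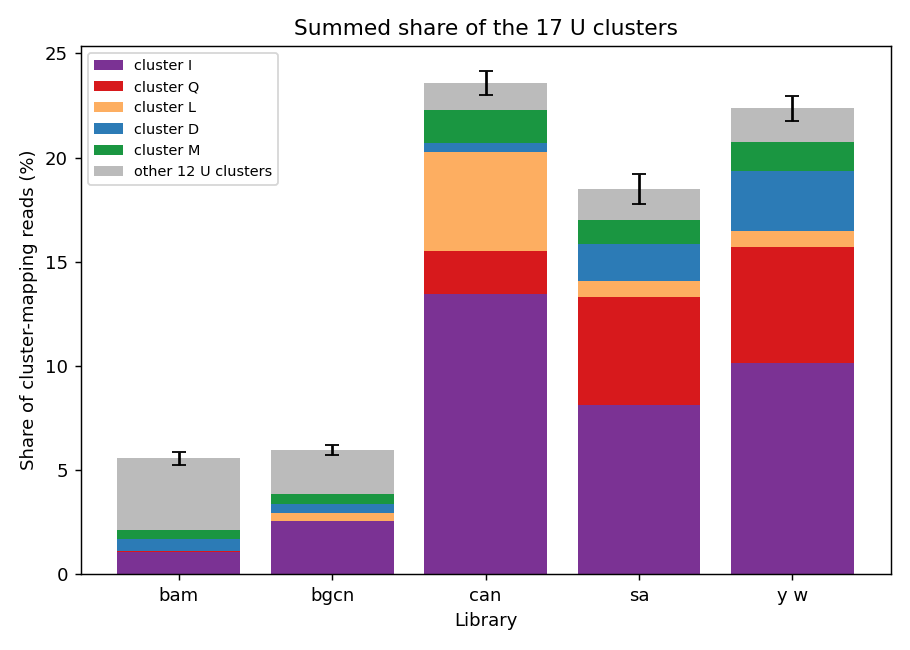
Bars give the summed share of cluster-mapping reads (%) held by the 17 U clusters in each library, coloured for clusters I, Q, L, D and M and grey for the other 12, and black bars are 95% exact binomial intervals of the sum. The 2 spermatogonia libraries reach 5.56% and 5.96%, while can, sa and y w reach 23.6%, 18.5% and 22.4%. Most of this is held by clusters I, L and Q in can, and by I and Q in sa and y w.

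Cluster Q was nearly empty in spermatogonia and among the most abundant clusters elsewhere. It had 4 reads in bam and 3 in bgcn, against 442 in can, 603 in sa and 1016 in y w. By reads it was last of the 99 clusters in bam and in bgcn, and 11th in can, 7th in sa and 6th in y w. Its share was 0.0191% (interval 0.00521 to 0.0489) in bam, 0.00919% (0.00189 to 0.0268) in bgcn, 2.05% (1.86 to 2.24) in can, 5.18% (4.79 to 5.60) in sa and 5.53% (5.20 to 5.87) in y w. With the libraries of a group pooled, its share was 241-fold higher in spermatocyte testes, with a counting interval of 116 to 600.1 from 1045 against 7 reads. On a fold scale the spermatocyte and spermatogonia libraries were much further apart than the libraries within either group.

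In edgeR's quasi-likelihood test over all 99 clusters, cluster Q rose with a log2 fold change of 8.97 (SE 1.07, adjusted p = 7.66e-03 after Benjamini-Hochberg adjustment). It was the only U cluster past an adjusted p of 0.05, and also the only one of all 99, which is a background of 1.01% called higher. None was called lower, a background of 0%. At an unadjusted p under 0.05, 6 U clusters had positive values (D, I, L, M, P and Q) and 1 a negative value (J), against 15.2% and 9.09% of all clusters. DESeq2 called 5 U clusters higher (D, I, M, P and Q), against 13.1% of all clusters, and 1 lower (J), against 4.04%. The call of cluster Q was lost without the bam library, at a log2 fold change of 9.07 and an edgeR adjusted p of 0.226, whereas its adjusted p over the 11 alternatives ran from 5.83e-22 to 0.226.

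Fitted changes are relative to the typical cluster, so another scaling shifts them. Over all 99 clusters the median log2 fold change was -0.11 with TMM scaling (the trimmed mean of M-values), -0.93 with library totals and -1.58 with the factors behind the authors' normalised reads. For the 17 U clusters the medians were 0.21, -0.66 and -1.28 in the same order. With TMM 9 U clusters had positive and 8 negative values, as did 47 and 52 of all clusters. Library totals called 3 U clusters higher (I, L and Q) and 1 lower (J), against 4.04% and 9.09% of all clusters. The authors' factors called 2 higher (L and Q) and 5 lower (A, B, E, G and J), against 3.03% and 48.5% of all clusters.

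**Figure D2:**
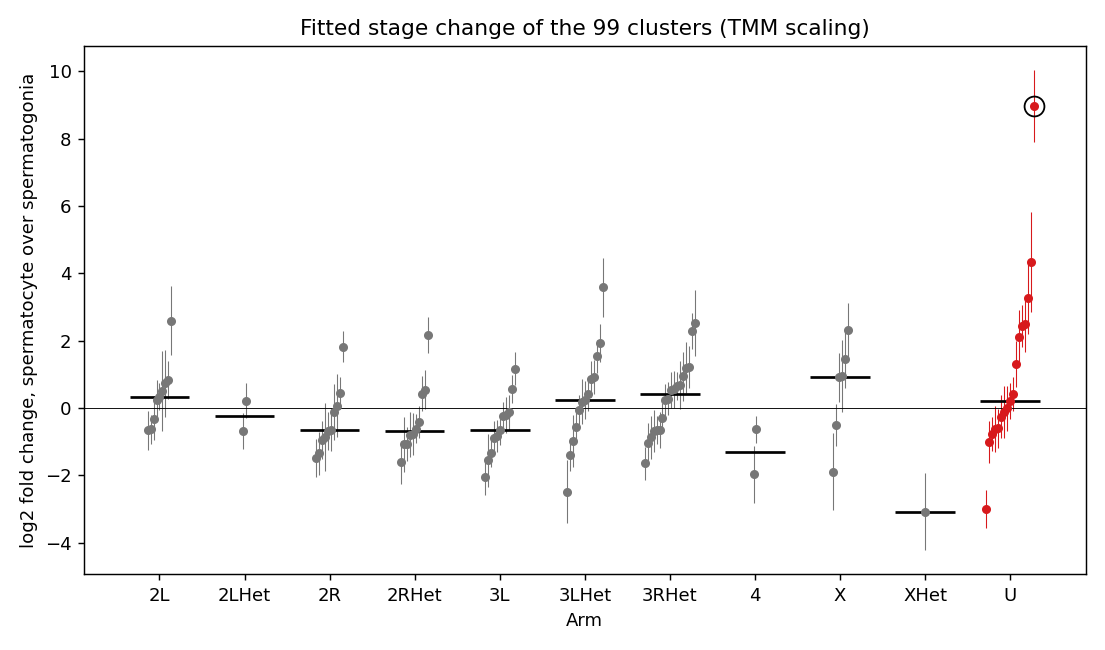
Each point is the log2 fold change of 1 of the 99 clusters, spermatocyte over spermatogonia, from edgeR with TMM scaling, grouped by arm, with bars of 1 SE and black lines at each arm's median. U clusters are red, and the ring marks cluster Q at 8.97, the point past an adjusted p of 0.05.

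Cluster I was the most abundant U cluster on average, at 7.07% of cluster-mapping reads over the 5 libraries. It had 227 reads in bam, 832 in bgcn, 2903 in can, 945 in sa and 1866 in y w. Its share was 1.09% in bam and 2.55% in bgcn against 13.4% in can, 8.12% in sa and 10.2% in y w, so the stage groups did not overlap. The means were 1.82 ± 1.03% and 10.8 ± 3.76% (SD, n = 2 each), 5.94-fold apart. The fitted log2 fold change was 3.28 (SE 1.09) and did not pass in edgeR (adjusted p = 0.145, between 5.02e-04 and 0.301 over the 11 alternatives).

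Cluster L varied most among the libraries of a group. Its reads numbered 7 in bam, 118 in bgcn, 1029 in can, 88 in sa and 148 in y w. The can share of 4.77% (interval 4.48 to 5.06) was 6.30-fold that of sa, 0.756% (0.607 to 0.931). The bgcn share of 0.361% (0.299 to 0.433) was 10.8-fold that of bam, 0.0335% (0.0135 to 0.0689). Both spermatocyte libraries still lay above both spermatogonia libraries. The log2 fold change of 4.33 (SE 1.48) did not pass (edgeR adjusted p = 0.151). It was 7.61 without bgcn, 2.59 without can (edgeR adjusted p = 5.26e-03) and 5.04 without sa (8.17e-03), so that leaving out either spermatocyte library gave a call.

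Cluster M had a similar share in bam and bgcn and was 1.38-fold higher in can than in sa, with intervals that did not overlap. It had 89 reads in bam, 157 in bgcn, 342 in can, 134 in sa and 258 in y w. Its share was 0.425% in bam, 0.481% in bgcn, 1.58% in can, 1.15% in sa and 1.40% in y w, again with no overlap of the stage groups. The means of 0.453 ± 0.0392% and 1.37 ± 0.306% (SD, n = 2 each) were 3.02-fold apart, and the log2 fold change of 2.44 (SE 0.62) did not pass in edgeR (adjusted p = 0.0905, and 0.0272 without can). Within the U reads of a library, cluster M kept between 6.23% (sa) and 8.07% (bgcn).

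Cluster D was high in sa and y w and low in the other libraries. Its reads numbered 117 in bam, 146 in bgcn, 98 in can, 209 in sa and 522 in y w. As shares these were 0.559%, 0.447%, 0.454%, 1.80% and 2.84%, so can lay between the 2 spermatogonia libraries and the groups overlapped. The log2 fold change of 2.12 (SE 0.79) did not pass in edgeR (adjusted p = 0.166). Without can it was 2.83 (edgeR adjusted p = 7.71e-03), and without sa 0.60 (0.665).

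Clusters N and P were also higher by share in both spermatocyte libraries. Cluster P had 11 reads in bam, 44 in bgcn, 39 in can, 53 in sa and 79 in y w. Its stage shares ran from 0.0526% in bam to 0.455% in sa. Between them, bgcn at 0.135% (interval 0.0979 to 0.181) and can at 0.181% (0.128 to 0.247) had overlapping intervals. The log2 fold change of cluster P was 2.48 (SE 0.82) and did not pass (edgeR adjusted p = 0.145). Cluster N had 8 reads in bam, 14 in bgcn, 10 in can, 8 in sa and 26 in y w. Its stage shares lay between 0.0382% and 0.0688% with intervals that overlap, so the order of those 4 libraries was not detectable at this depth.

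Cluster J went the other way by share. This cluster, singled out after its values were seen, had 81 reads in bam and 86 in bgcn against 5 in can, 2 in sa and 32 in y w. Its share was 0.387% (interval 0.308 to 0.481) in bam and 0.263% (0.211 to 0.325) in bgcn, against 0.0232% (0.00752 to 0.0540) in can and 0.0172% (0.00208 to 0.0621) in sa. The y w share of 0.174% (0.119 to 0.246) lay between the groups. The log2 fold change of -3.01 (SE 0.56) did not pass in edgeR (adjusted p = 0.0585), and over the 11 alternatives the adjusted p ran from 6.76e-06 to 0.226.

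Clusters A, B, C, E, F, G and K had lower shares in both spermatocyte libraries than in either spermatogonia library, but for all except G this order was within counting error. For cluster K the sa share of 0.0602% (interval 0.0242 to 0.124) was nearly that of bgcn, 0.0612% (0.0374 to 0.0946). For cluster A the sa share of 0.266% (0.181 to 0.378) was nearly the 0.279% (0.224 to 0.342) of bgcn. Cluster A had 263 reads in bam, 91 in bgcn, 41 in can, 31 in sa and 64 in y w, and its bam share of 1.26% (interval 1.11 to 1.42) stood apart from the 0.190 to 0.348% of the other 4 libraries. Cluster G had 66 reads in bam, 99 in bgcn, 25 in can, 9 in sa and 13 in y w. Cluster C had 97, 144, 86, 20 and 25 reads in the same order of libraries. Its can share of 0.398% was close to the 0.464% of bam and the 0.441% of bgcn, while sa (0.172%) and y w (0.136%) were lower.

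Few reads lay in the other members of that set. Cluster B had 29 reads in bam, 27 in bgcn, 5 in can, 4 in sa and 16 in y w. Cluster E had 38, 44, 6, 10 and 6 reads in the same order. For cluster F the counts were 23, 18, 6, 5 and 7, and for cluster K 19, 20, 5, 7 and 6. These 7 clusters were between 1.59-fold (C) and 3.85-fold (B) lower by mean share in spermatocyte testes, and their fitted log2 fold changes with TMM scaling, from -1.01 (B) to 0.21 (C), did not pass.

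Clusters H and O had shares that overlapped between the stages. Cluster H had 66 reads in bam, 33 in bgcn, 25 in can, 17 in sa and 16 in y w. Cluster O had 19 reads in bam, 69 in bgcn, 24 in can, 6 in sa and 7 in y w. In all, the stage groups did not overlap by share in 14 of 17 U clusters, 6 higher in spermatocyte testes and 8 higher in spermatogonia. Among all 99 clusters the corresponding background was 67.7%, made up of 13.1% higher in spermatocyte testes and 54.5% higher in spermatogonia. After TMM scaling 7 U clusters were higher and 4 lower without overlap, against 23.2% and 35.4% of all clusters. On the scale of the authors' normalised reads 4 were higher and 10 lower, against 7.07% and 71.7%. By counting error alone, the share intervals of the groups were separate for G, I, J, L, M and Q and overlapped for the other U clusters. These intervals were not compared for clusters of other arms, so this list has no background.

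**Figure D3:**
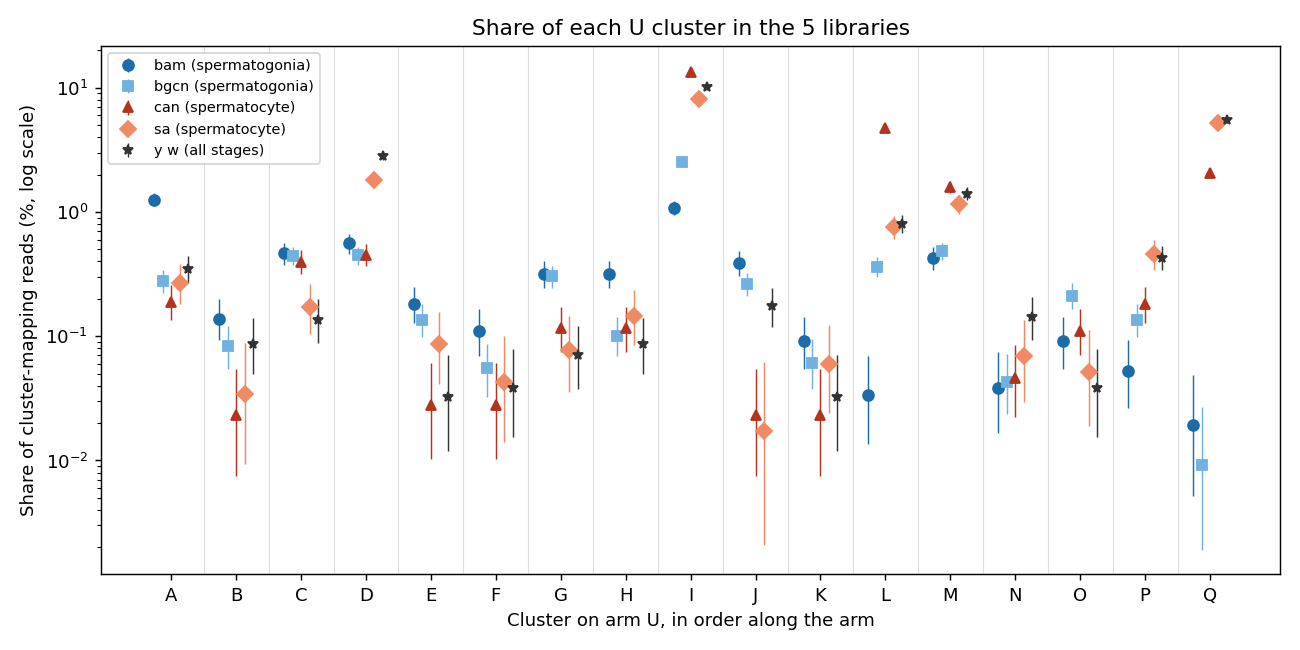
Points give the share of cluster-mapping reads (%, log scale) of clusters A to Q in each of the 5 libraries, with 95% exact binomial intervals. Cluster Q goes from 0.0191% and 0.00919% in the spermatogonia libraries to between 2.05% and 5.53% in can, sa and y w, and cluster J shows the opposite order.

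Per length, clusters Q, I, M, L and P were the 5 densest U loci in can, sa and y w. Density is given as reads per kb of cluster in 1000000 cluster-mapping reads. For cluster Q it was 147 in bam and 70.6 in bgcn, against 15721 in can, 39802 in sa and 42477 in y w, where it was the densest of all 99 clusters. In bam and bgcn it ranked 38th and 45th. Cluster M, the third shortest on U, ranked between 4th and 7th of 99 in every library, at a density of 977 in bam and 3638 in can. Cluster P, the next longer than Q, ranked 26th in bam, 10th in bgcn and can, 6th in sa and 7th in y w. Cluster I ranked 11th in bam, 6th in bgcn and 3rd in can, sa and y w, with a density of 450 in bam and 5571 in can. At the other end, cluster B, 51388 bases long, had a density between 4.51 (can) and 27.0 (bam) and ranked 91st or lower in every library. Cluster L had a density of 23.7 in bam (93rd), 256 in bgcn, 3374 in can, 535 in sa and 570 in y w. Over the summed length of all U clusters, density was 131 in bam, 140 in bgcn, 555 in can, 435 in sa and 526 in y w.

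**Figure D4:**
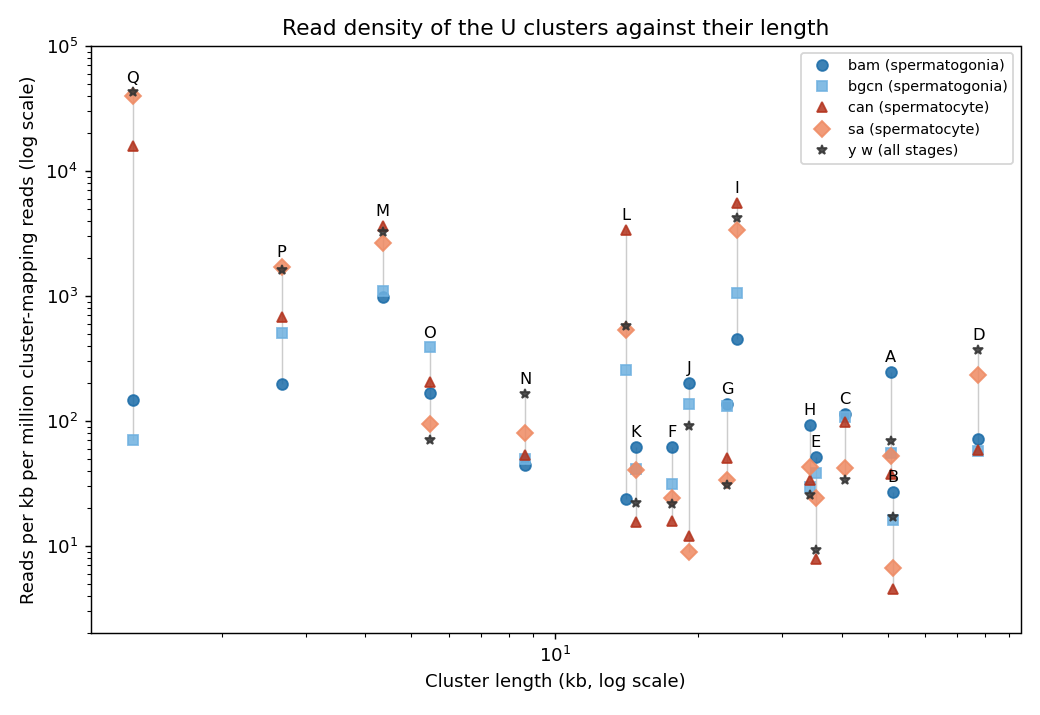
Read density (reads per kb in 1000000 cluster-mapping reads, log scale) is plotted against cluster length (kb, log scale) for clusters A to Q, with 1 symbol per library and grey lines joining the libraries of a cluster. Cluster Q spans from 70.6 to 42477, the widest range on the arm, while cluster M stays between 977 and 3638.

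Libraries of the same group differed at least 2-fold at some U loci. Among U clusters this was more frequent than among all clusters for can and sa, but not for bam and bgcn. At 4-fold the U and background values were 12.5% and 11.2% for bam and bgcn. For can and sa they were 6.67% and 10.6%. Between bam and bgcn, 6 of the 16 U clusters with at least 10 reads in the pair were at least 2-fold apart in share (37.5%, against a background of 42.9% of all clusters). Of these, A and H were higher in bam (background 35.7%), and I, L, O and P were higher in bgcn (background 7.14%). Between can and sa, 8 of 15 U clusters were at least 2-fold apart (53.3%, against 30.9%). Clusters C, L and O were higher in can (background 20.2%), and D, E, K, P and Q were higher in sa (background 10.6%). Cluster Q was 2.53-fold and cluster D 3.96-fold higher in sa than in can. Since each genotype had 1 library, these differences were not tested and have no check in replicates.

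Ratios between clusters within 1 library do not depend on any scaling. The pairs were picked with the cluster values known, and no background over other pairs was computed. All of them except M over I set can apart from sa and y w. The adjoining clusters C and D had nearly equal reads in 3 libraries, with a D over C ratio of 1.21 (interval 0.914 to 1.60) in bam, 1.01 (0.800 to 1.29) in bgcn and 1.14 (0.844 to 1.54) in can. In sa the ratio was 10.4 (6.60 to 17.5), and in y w it was 20.9 (14.0 to 32.6). The ratio of L to I was 0.354 (0.330 to 0.381) in can, against 0.0931 (0.0740 to 0.116) in sa and 0.0793 (0.0666 to 0.0938) in y w. For Q over I the values were 0.152 (0.137 to 0.168) in can, 0.638 (0.575 to 0.707) in sa and 0.544 (0.504 to 0.588) in y w. The intervals of can and sa did not overlap for any of these 3 ratios. For P over M they did not overlap either, at 0.114 (0.0797 to 0.159) in can and 0.396 (0.282 to 0.547) in sa. The y w value of P over M was 0.306 (0.235 to 0.395). For M over I the can, sa and y w values of 0.118, 0.142 and 0.138 had overlapping intervals.

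**Figure D5:**
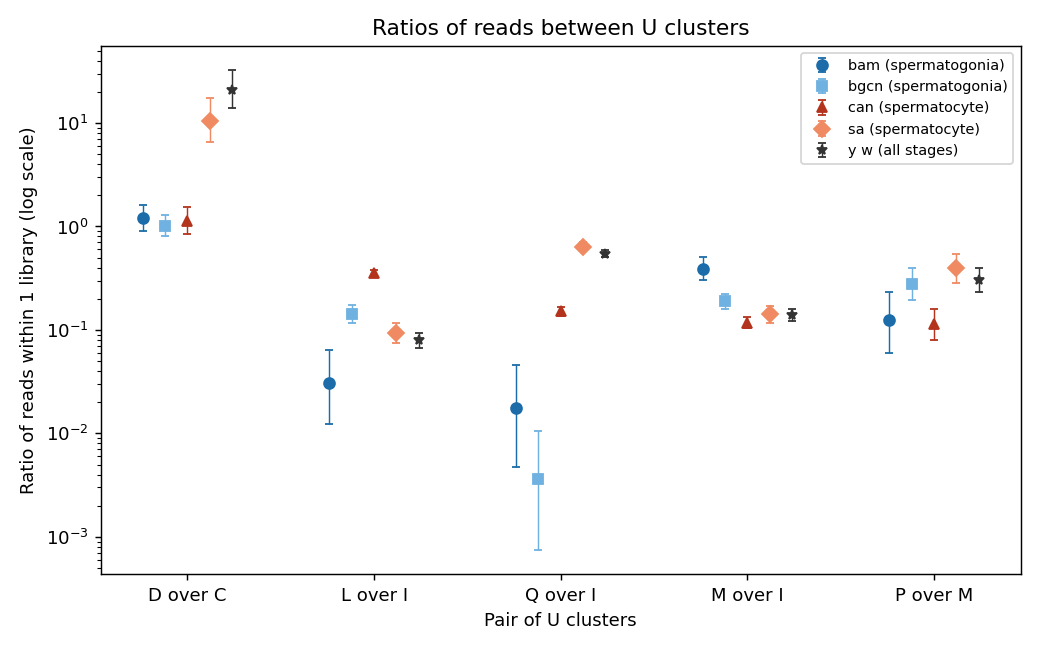
Ratios of reads between pairs of U clusters (log scale) are shown for each library with 95% exact intervals. The D over C ratio is near 1 in bam, bgcn and can and 10.4 or 20.9 in sa and y w, while M over I is alike in can, sa and y w.

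The y w testes hold all stages, and their shares are set here beside those of the 4 stage libraries. In 10 of the 17 U clusters the y w share fell inside the range spanned by the 4 stage libraries (background 78.8%), in 3 above it (background 11.1%) and in 4 below it (background 10.1%). Those above were D at 1.58-fold the highest stage share, N at 2.06-fold and Q at 1.07-fold, and those below were C, G, H and O. For cluster Q the y w and sa intervals overlap, so y w was not detectably above sa. On a log scale the y w share was closer to the spermatocyte than to the spermatogonia mean in 15 of 17 U clusters (background 55.6%), the exceptions being B and J. After TMM scaling that count was 12 (background 55.6%).

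Among the arms, U had the largest difference in summed share between stage groups in either direction. The 13 clusters on 3LHet, a heterochromatic arm, held 7.22 ± 2.39% in spermatogonia and 9.11 ± 3.32% in spermatocyte testes, and the 18 on 3RHet held 6.93 ± 2.08% and 4.26 ± 0.0896% (SD, n = 2 each). The 6 clusters on X held 22.3 ± 1.98% and 25.2 ± 6.54% (SD, n = 2 each). By median fitted log2 fold change, however, U at 0.21 lay among other arms, with 3LHet at 0.23, 3RHet at 0.40 and X at 0.93.

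For cluster Q, the U cluster with the largest fitted change, the most similar profiles over the 5 libraries were looked up among the other 98 clusters and the 117 transposons. The measure was the root mean square difference of log2 shares after centring each profile on its own mean. The closest clusters were I (2.81), the cluster on 3LHet from 356904 to 406827 (2.88) and L (2.92), against a median of 4.37. The closest transposons were Tirant (2.65), a gypsy-family retrotransposon, followed by Dsim-ninja (2.74) and aurora-element (2.88), both of the BEL/Pao group, against a median of 4.27. A difference of over 2 on the log2 scale leaves none of them close to cluster Q. The sources used here do not say how reads that map to several places were counted, so reads shared between U clusters and similar sequence elsewhere leave single values uncertain.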

How the data were processed

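Per the labels' protocols, a TruSeq small RNA kit was used. Bowtie 1 and DESeq2 are listed in the submitters' processing notes, with no role stated. The sources used here do not give read lengths, build, strand or multi-mapping rules. The authors deposited raw read counts per cluster and per transposon, and a normalised signal that equals the count times 1 factor per library, from 0.710 (can) to 1.36 (y w).

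Shares were computed from the counts of 99 clusters. The stage test used edgeR 4.0.16 in R 4.3.3 on bam, bgcn, can and sa, with TMM scaling, the two-sided quasi-likelihood test, Benjamini-Hochberg adjustment over all clusters and a threshold of 0.05. A cluster needed 10 reads in 2 or more of the 4 libraries, and all 99 met this. Each standard error was obtained by dividing the log2 fold change by the square root of F. On simulated counts of 99 clusters with 20 changed, this test found 37.5% of the changed clusters when they differed 4-fold, with 0.6 false calls a run. For 16-fold changes it found 97.5%, with 1.4 false calls. Simulated rises and falls were equal in number, so recovery when a few abundant clusters rise was not examined. Similarity used a pseudocount of 0.5 reads. Alternatives were DESeq2 1.42.0, other scalings, other count filters, other denominators and leaving out each library.

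All U clusters are reported. Full statistics went to those past the threshold, the 5 with the highest mean share and the 3 with the largest fitted change. The members and lists were chosen with earlier results of these data known.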

Additional observations from a re-analysis of the deposited data

How the results depend on the processing

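The number of U clusters past the stage test was 1 with edgeR and TMM scaling, against 1.01% of all clusters. With library totals it was 4, against 4.04% of all clusters called higher and 9.09% lower. With the authors' factors it was 7 (3.03% higher and 48.5% lower) and with DESeq2 6 (13.1% and 4.04%). When 50 reads were required in 2 or more libraries, it was 5 of the 9 left (16.9% of the 59 clusters tested). Leaving out 1 library gave 0 (without bam, where 0% of all clusters passed) to 5 (without can, 9.09% of all clusters). It gave 1 without bgcn (2.02%) and 2 without sa (3.03%). With the adjoining clusters C and D merged, an alternative chosen after seeing the data, it stayed at 1. The cause of these shifts was not tested.

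Signs of fitted log2 fold changes turned in clusters that did not pass. With library totals C was at -0.65 and H at -0.66, and with the authors' factors C was at -1.28, H at -1.18 and N at -0.19. Cluster K was at 0.058 with DESeq2 size factors in edgeR and at 0.10 with DESeq2. When 1 library was left out, A ran from -1.12 to 0.21, C from -0.43 to 0.63, E from -1.73 to 0.13, F from -0.73 to 0.15, K from -0.92 to 0.69 and O from -0.84 to 1.21. The tally that follows was made for U clusters only and has no background. The authors' factors alone called 3 of all 99 clusters higher and 48 lower. Over all U clusters and alternatives, 16 values turned sign, 23 newly passed, 1 no longer passed (Q without bam) and 137 kept direction and call.

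With a fold of 4 in place of 2, the pair bam and bgcn differed at 2 U clusters (11.2% of all clusters) and the pair can and sa at 1 (10.6%). With 50 or more reads in the pair, can and sa differed at 5 of 8 (30.8%). The count of y w shares within the stage range was 4 (without can, against 62.6% of all clusters) to 10 (without bgcn, 72.7%) when 1 library was left out. The summed U share was higher in spermatocyte testes under every alternative run, by 12.7 to 17.8 percentage points when 1 library was left out, by 11.7 without cluster Q and by 0.141 without I, L and Q, where the groups overlapped.

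No paired analysis was possible because the labels number no replicates. A count of 3 reads, the upper limit that 0 reads allow, is 0.0258% of cluster-mapping reads in sa, the shallowest library, and 7 U clusters had under 10 reads there.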

Other observations

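Cluster I, chosen after its values were seen, had profiles much closer to it than cluster Q did. By the same measure the nearest cluster was that on 3LHet from 356904 to 406827 (0.37, against a median of 1.90), followed by a cluster on X from 21759393 to 21844063 (0.54) and cluster M (0.62). The 3LHet cluster held 0.650% of cluster-mapping reads in bam, 0.864% in bgcn, 6.89% in can, 3.54% in sa and 3.05% in y w. The nearest transposons were Dsim-ninja (0.30), aurora-element (0.31) and the gypsy-family element opus (0.39), against a median of 1.80. Dsim-ninja held 0.486% of transposon-mapping reads in bam, 1.35% in bgcn, 9.44% in can, 5.64% in sa and 4.35% in y w, next to 1.09%, 2.55%, 13.4%, 8.12% and 10.2% of cluster-mapping reads for cluster I.

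Across the 17 U clusters, which share their libraries, Spearman's rho between length and fitted log2 fold change was -0.48, and across all 99 clusters it was 0.07.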
